A study of Mus musculus with 18 samples.

Results

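Untreated lungs of the inbred mouse strains C57BL6/J and A/J were compared, using the 3 samples titled B6 control and the 3 titled AJ control, which are 6 of the 18 samples of the series. C57BL6/J is the spelling of the labels for the standard C57BL/6J strain. The series measured lung RNA on 1-colour oligonucleotide arrays in 6 groups of 3, an irradiated and an untreated group in each of 3 inbred strains, C57BL6/J, A/J and C3H/HeJ, to find genes that differ with strain and with lung injury after thoracic irradiation. The untreated mice of the 3 strains were 15 to 26 weeks old, with no genetic change and no treatment named, and total RNA came from the homogenized right lung. The irradiated groups, used here as a second look at the same strain pair, had received 18 Gy to the whole thorax at 8 weeks of age. They were sacrificed when moribund, at 28 to 30 weeks in C57BL6/J and 30 to 32 weeks in A/J. The labels do not say whether the 3 control samples of a strain came from separate mice, so p-values may measure technical spread there. The sex of the mice and the hour of sacrifice are not given in the sources used here.

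Mice of an inbred strain are genetically alike, and 2 such strains differ by alleles fixed at many loci. C57BL6/J is known for lung fibrosis after thoracic irradiation, whereas A/J is known more for inflamed air sacs, called alveolitis. A/J is also known for airways that constrict readily and for a high rate of lung tumours.

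Values below are normalized log2(signal + 7), on which the median of all probe sets and arrays was 4.98. Values near 3 lie at the bottom of this scale, where fold changes are understated. Each difference is C57BL6/J minus A/J with its standard error, and a gene was called where its Benjamini-Hochberg adjusted p from the limma fit lay under 0.05. The trimmed mean signal before normalization was 61.0 to 92.7 in the C57BL6/J arrays and 80.4 to 88.1 in the A/J arrays. Actin probe sets near the 5' and 3' ends of the transcript, whose ratio gauges RNA integrity, gave ratios of 0.677 to 0.737 in C57BL6/J and 0.730 to 0.742 in A/J. Both groups showed the genes of lung tissue. Sftpc, the surfactant protein of alveolar type 2 cells, lay between 12.87 and 13.01 on all 6 arrays, Scgb1a1, the secretory protein of club cells, was at 13.19, and Pecam1, an endothelial adhesion molecule, was at 9.65 to 9.93 and 10.15 to 10.29. Sftpc and Scgb1a1 sit at the top of the signal range, where quantile normalization holds values together, so no change is read from them.

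C57BL6/J control arrays 1 and 3 stood apart from array 2 in genes of squamous epithelium and skeletal muscle. The mean over 17 measured squamous genes was 8.11, 4.45 and 8.07 in C57BL6/J arrays 1 to 3, against 4.22 to 4.41 in A/J. The mean over 12 measured skeletal muscle genes was 4.66 to 8.05 in C57BL6/J, with array 2 lowest, against 4.48 to 4.72 in A/J. Krt4, a keratin of squamous linings such as the oesophagus, reached 11.52, 4.43 and 11.75 in C57BL6/J, against 4.43, 4.58 and 3.41 in A/J. Array 3 of the irradiated A/J group was also high. The part of these genes in other results was not tested beyond leaving out the 3 arrays, which keeps only C57BL6/J array 2 and assumes that it varies like the other groups. That fit is called the smaller fit below, and genes described below as called between the strains in untreated lung that lost their call in it are named in each paragraph.

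**Figure D1:**
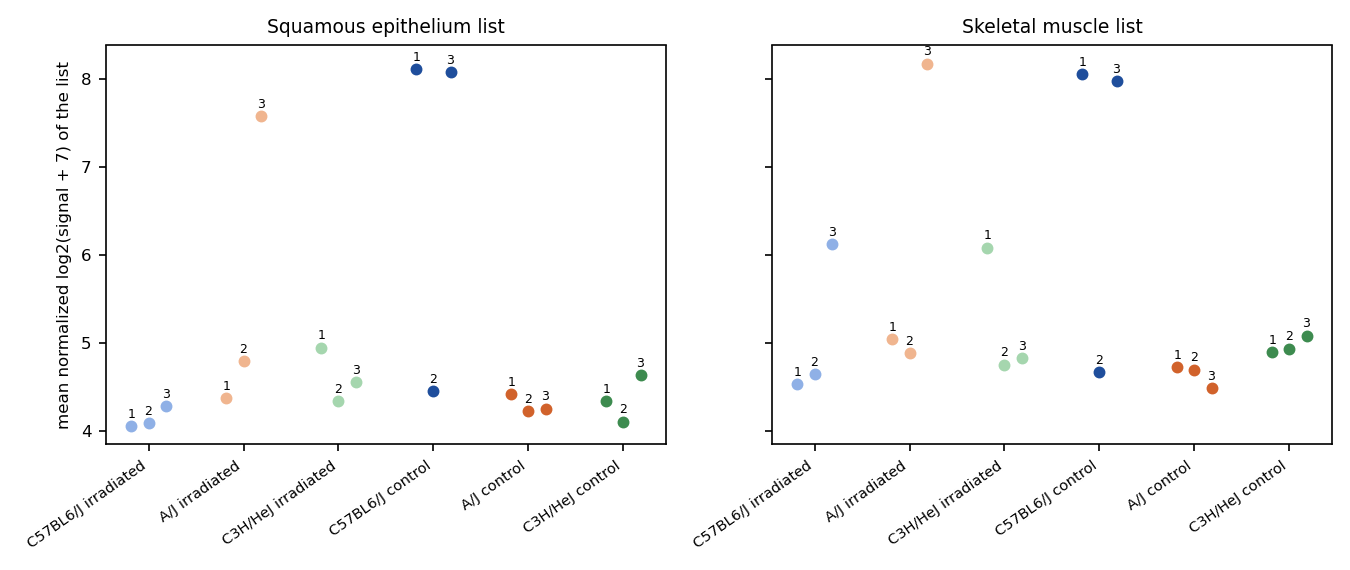
Mean normalized log2(signal + 7) of the squamous epithelium list (left) and the skeletal muscle list (right) in each of the 18 arrays, with points numbered by replicate. C57BL6/J control arrays 1 and 3 and A/J irradiated array 3 lie far above the other arrays of their groups in both lists.

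In all, 1289 of 12412 genes (10.4%) were called, of which 736 (5.93%) were higher in C57BL6/J and 553 (4.46%) lower. The 3 arrays of the groups did not overlap in 32.5% of all genes. The median difference over all genes was -0.01. With the 3 arrays above left out, 404 genes were called, 237 higher and 167 lower, and 374 of them were called in the same direction in the full comparison. All 1289 genes kept the sign of their difference in that smaller fit. The share of called genes varied widely between gene lists, with 85.7% of the circadian clock list called. In limma's test 0 of 20 T and NK cell genes were called, 0 of 21 ciliated cell genes and 0 of 22 cell division genes. At an unadjusted p under 0.05, 3 genes of each of these lists passed.

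**Figure D2:**
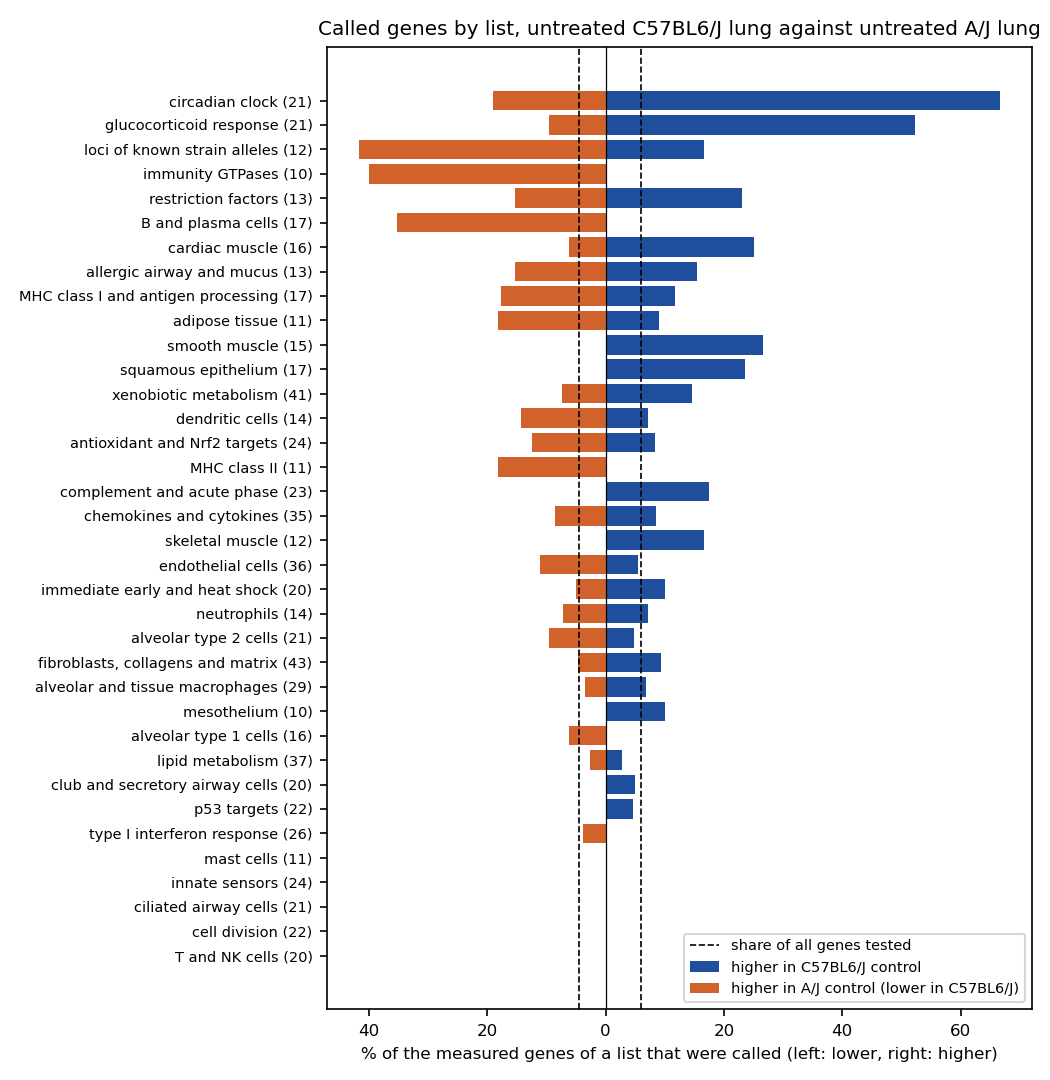
Share of the measured genes of each list that was called in untreated lung, for lists with at least 10 measured genes (number in parentheses). Bars to the right are genes higher in C57BL6/J, bars to the left genes lower in C57BL6/J, and the dashed lines mark the shares over all genes tested, 5.93% and 4.46%. The circadian clock and glucocorticoid response lists lie farthest beyond the lines on the right, and the known strain alleles and the immunity GTPases farthest on the left.

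Genes of the circadian clock had the highest share called of the lists with at least 10 measured genes, although the skeletal muscle and squamous lists had larger medians. The clock is a loop in which BMAL1 (gene Arntl) and its partners CLOCK and NPAS2 bind E-box motifs and switch on the Per, Cry, Nr1d and Dbp genes, whose products feed back. DBP, TEF and HLF act through D-box motifs, where NFIL3 opposes them, while the ROR and REV-ERB (Nr1d) proteins act on Arntl and Nfil3 through ROR elements. In mouse lung, as in other tissues, the genes switched on by BMAL1 peak many hours apart from Arntl itself.

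The promoters of 5 clock genes are shown because they carry the motifs that these arms of the loop use, with the motif letters in capitals. The windows run from 250 bases before to 50 bases after the annotated start, on the gene's strand, from RefSeq and its GRCm38.p6 build. Ciart (chr3:95882179-95882478, minus strand) held 3 E-boxes, Per1 (chr11:69098699-69098998, plus strand) 1 E-box and Per3 (chr4:151044616-151044915, minus strand) 2 D-boxes. Arntl (chr7:113207261-113207560, plus strand) and Nfil3 (chr13:52980990-52981289, minus strand) each held 1 ROR element, in Nfil3 on the other strand.
Ciart: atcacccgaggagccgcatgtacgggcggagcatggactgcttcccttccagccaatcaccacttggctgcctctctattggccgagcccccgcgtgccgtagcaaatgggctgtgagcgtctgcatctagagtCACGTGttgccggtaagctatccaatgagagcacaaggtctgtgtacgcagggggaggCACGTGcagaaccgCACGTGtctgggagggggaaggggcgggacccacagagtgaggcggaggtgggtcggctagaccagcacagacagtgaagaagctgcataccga
Per1: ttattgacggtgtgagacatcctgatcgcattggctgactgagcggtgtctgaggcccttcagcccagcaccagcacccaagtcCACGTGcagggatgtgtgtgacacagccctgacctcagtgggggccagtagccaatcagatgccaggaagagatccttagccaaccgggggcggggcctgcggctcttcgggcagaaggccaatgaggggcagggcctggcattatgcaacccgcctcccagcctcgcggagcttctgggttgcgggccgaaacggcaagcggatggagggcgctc
Per3: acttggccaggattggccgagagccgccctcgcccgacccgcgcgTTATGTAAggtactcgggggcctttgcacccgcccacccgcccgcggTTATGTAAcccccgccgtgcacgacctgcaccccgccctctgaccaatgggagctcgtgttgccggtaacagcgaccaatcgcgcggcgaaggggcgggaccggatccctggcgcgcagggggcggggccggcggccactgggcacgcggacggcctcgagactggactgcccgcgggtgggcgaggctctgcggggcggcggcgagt
Arntl: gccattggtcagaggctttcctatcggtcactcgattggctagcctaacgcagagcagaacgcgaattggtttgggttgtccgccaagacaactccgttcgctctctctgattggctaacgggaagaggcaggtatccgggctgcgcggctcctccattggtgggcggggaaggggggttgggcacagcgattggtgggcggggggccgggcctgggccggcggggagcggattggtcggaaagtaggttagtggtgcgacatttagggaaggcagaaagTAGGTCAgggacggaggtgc
Nfil3: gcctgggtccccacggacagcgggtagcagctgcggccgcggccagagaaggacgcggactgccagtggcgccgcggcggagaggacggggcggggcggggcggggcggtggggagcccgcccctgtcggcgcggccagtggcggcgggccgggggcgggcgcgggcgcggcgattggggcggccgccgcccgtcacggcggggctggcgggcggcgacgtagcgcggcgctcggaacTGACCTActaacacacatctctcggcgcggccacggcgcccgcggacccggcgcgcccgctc

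The motifs searched on both strands were CACGTG for the E-box, TTATGTAA for the D-box and TAGGTCA for the ROR element, and none of them overlaps another. They stood in 7.15%, 0.938% and 2.61% of the 32851 promoter windows of this length in the table. Of the 22 clock genes listed, 18 had a window, and some had several starts, 26 windows in all. The other window of Per1 and that of Arntl, not shown, held none of the motifs. An E-box stood in a window of 5 of the 18 genes (Ciart, Per1, Tef, Bhlhe41 and Cry1), a D-box in 1 and a ROR element in 2. A match describes the letters of the window only and was not tested against binding or expression.

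Of 21 measured clock genes, 14 were higher in C57BL6/J, 4 were lower and 3 were not called, with a median difference of 0.98. The arrays of the 2 strains did not overlap in 20 of the 21, against 32.5% of all genes. Of all genes, 5.93% were called higher and 4.46% lower. Dbp, the D-box activator whose RNA swings widely over the day, had 9.76, 9.62 and 9.90 in C57BL6/J, against 5.68, 5.45 and 5.25 in A/J, a difference of 4.30 ± 0.20 (19.7-fold, adjusted p = 1.03e-09). Its second probe set differed by 3.99. Its relatives were higher too, Hlf by 2.81 ± 0.24 (adjusted p = 1.25e-06) and Tef by 1.72 ± 0.15 (adjusted p = 1.63e-06).

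The period genes, repressors of the loop, were all higher in C57BL6/J. Per2 had 7.46, 7.53 and 7.78 in C57BL6/J, against 4.95, 5.05 and 4.79 in A/J, a difference of 2.66 ± 0.12 (6.31-fold, adjusted p = 3.62e-10). Per1 had 7.49, 7.68 and 7.62, against 5.72, 5.75 and 5.92, a difference of 1.80 ± 0.16 (adjusted p = 1.77e-06). Per3 had 7.51, 7.78 and 7.91, against 6.09, 5.47 and 6.11, a difference of 1.84 ± 0.25 (adjusted p = 0.000141). In each of the 3, the lowest C57BL6/J array lay more than 1 unit above the highest A/J array. Ciart, another repressor of the loop, differed by 1.85 ± 0.23 (adjusted p = 5.94e-05). Nr1d2 and Nr1d1, which encode the REV-ERB repressors, differed by 2.07 ± 0.18 and 0.98 ± 0.21, and the cryptochrome Cry2 by 0.86 ± 0.18. Bhlhe40, a repressor at E-boxes, differed by 1.03 ± 0.13, and the deubiquitinase Usp2, a rhythmic output gene, by 1.19 ± 0.19. In the smaller fit Nr1d1 (1.17, adjusted p = 0.0653), Cry2 (0.93, adjusted p = 0.0968) and Usp2 (1.13, adjusted p = 0.0539) were not called.

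The activator genes Arntl, Npas2 and Clock were lower in C57BL6/J. Arntl had 4.44, 5.08 and 4.16 in C57BL6/J, against 6.93, 7.03 and 7.12 in A/J, a difference of -2.47 ± 0.24 (adjusted p = 5.99e-06), so that the A/J level was 5.53-fold that of C57BL6/J. A second Arntl probe set differed by -1.06 and was not called (adjusted p = 0.0644 over probe sets). Npas2 had 2.91, 4.27 and 3.72, against 5.59, 5.29 and 5.73, a difference of -1.90 ± 0.33 (adjusted p = 0.00118). Clock differed by -0.81 ± 0.19 (adjusted p = 0.0126), and Nfil3, the repressor at D-boxes, by -1.38 ± 0.30 (adjusted p = 0.00604). No array of either strain crossed into the range of the other in these 4 genes. Rora, which activates Arntl through ROR elements, was higher, with 8.11, 7.93 and 8.22 in C57BL6/J, against 7.38, 7.54 and 7.09 in A/J, a difference of 0.75 ± 0.18 (adjusted p = 0.0113). Csnk1e, a kinase that acts on the period proteins, differed by 0.48 ± 0.11 (adjusted p = 0.0103). The 3 uncalled genes were Cry1 (0.39), Bhlhe41 (0.50) and the kinase gene Csnk1d (0.04). Untreated C3H/HeJ lung lay between the strains for Dbp, with 7.88, 8.23 and 7.50, and for Arntl, with 6.50, 6.29 and 5.99. In the fit without the 3 arrays high in squamous genes, 10 of the 21 were called, 9 higher and 1 lower, and all 21 kept their sign. Those of this paragraph that lost their call were Npas2 (-1.27, adjusted p = 0.111), Clock (-0.71, adjusted p = 0.199), Nfil3 (-1.40, adjusted p = 0.114), Rora (0.59, adjusted p = 0.334) and Csnk1e (0.45, adjusted p = 0.206).

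**Figure D3:**
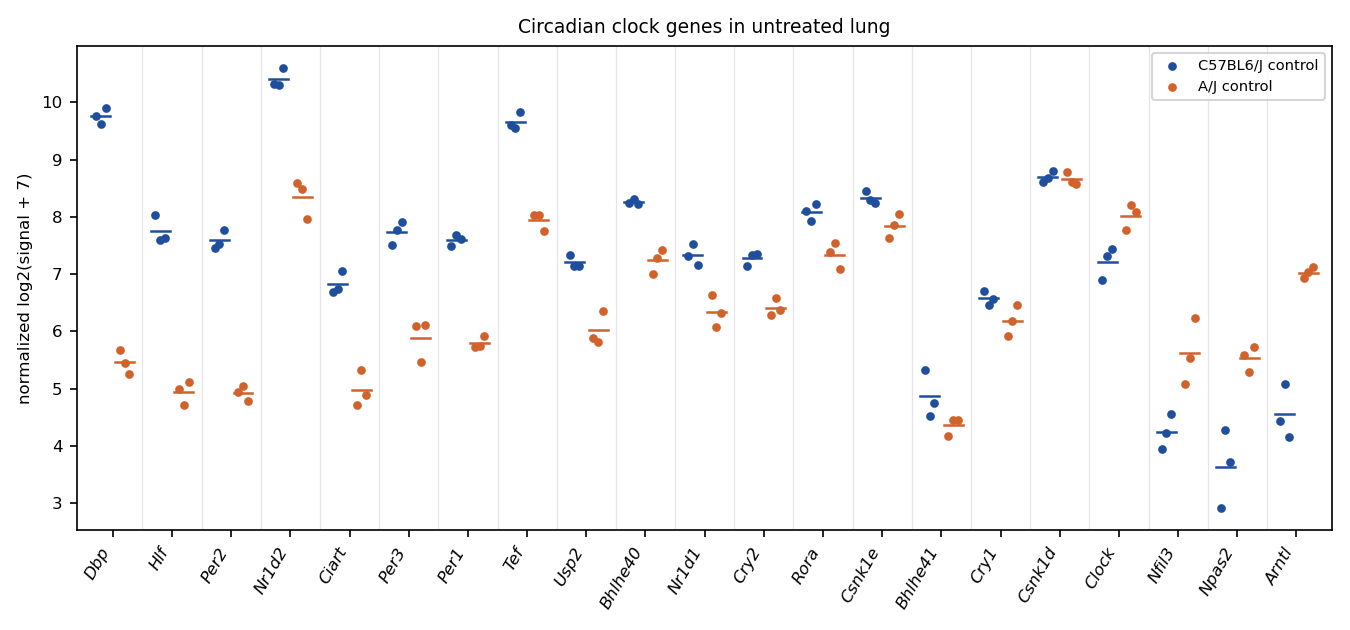
Normalized log2(signal + 7) of the 21 measured clock genes in the 3 C57BL6/J control arrays (blue) and the 3 A/J control arrays (orange), each point an array and each bar the group mean. From left to right stand the 14 genes called higher in C57BL6/J, then the 3 uncalled genes (Bhlhe41, Cry1 and Csnk1d), then the 4 called lower, and only Csnk1d shows overlapping arrays.

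Genes known to respond to glucocorticoids, the adrenal steroids, were mostly higher in C57BL6/J. Of 21 measured, 11 were higher and 2 lower, with a median difference of 0.80, and Per1 belongs to this list as well. The share called was 61.9%, against 10.4% of all genes. Zbtb16, a transcription factor induced by glucocorticoids, had 9.06, 9.07 and 9.40 in C57BL6/J, against 7.21, 6.85 and 6.40 in A/J, a difference of 2.36 ± 0.24 (5.12-fold, adjusted p = 8.02e-06). Tsc22d3, which encodes the anti-inflammatory protein GILZ, had 10.01, 9.98 and 10.12, against 8.38, 8.49 and 8.56, a difference of 1.56 ± 0.15 (adjusted p = 3.95e-06). Fkbp5, a chaperone of the glucocorticoid receptor, had 6.95, 7.62 and 6.99, against 5.33, 5.89 and 5.77, a difference of 1.52 ± 0.22 (adjusted p = 0.000247). All 3 genes were separated between the strains on every array, as were 15 of the 21 measured, against 32.5% of all genes. Lcn2, an iron-sequestering acute-phase protein, differed by 1.46 ± 0.24, and the metallothionein Mt1 by 0.92 ± 0.19. The 2 lower genes were Dusp1, a phosphatase that restrains MAP kinases (-0.68 ± 0.20), and the kinase gene Sgk1 (-0.61 ± 0.17). The receptor gene Nr3c1 did not pass the test (-0.18 ± 0.17), nor did Pdk4 (-0.01 ± 0.27). In the fit without the 3 arrays, 8 genes of this list were called, all of them higher, and the median was 0.81. Dusp1 and Sgk1, at -0.61 and -0.38, were not called there (adjusted p = 0.305 and 0.572).

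Class II genes of the major histocompatibility complex, which present antigen to helper T cells, differed in 2 of 11 measured members, both lower in C57BL6/J, with a list median of -0.34. The share called was 18.2%, against 10.4% of all genes. H2-Ea, the alpha chain of the I-E molecule, had 4.29, 3.36 and 3.64 in C57BL6/J, against 7.57, 6.87 and 6.90 in A/J, a difference of -3.35 ± 0.30 (adjusted p = 2.25e-06). C57BL6/J is known to carry a deletion in the promoter of this gene and to make no I-E molecule. H2-Ob, a subunit of the peptide-loading regulator H2-O, had 5.79, 6.45 and 6.07, against 7.59, 7.90 and 7.69, a difference of -1.62 ± 0.27 (adjusted p = 0.000745). The chains of the I-A molecule, H2-Aa and H2-Ab1, differed by 0.08 ± 0.13 and 0.17 ± 0.15, and Cd74, the invariant chain, by -0.35 ± 0.13, none of them called. Other probe sets of H2-Aa differed from this value, at 3.13 and 0.64 upward and -0.53 downward, all past the threshold over probe sets. H2-Ob was at -1.27 in the smaller fit and was not called (adjusted p = 0.0747).

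Among 17 measured class I and antigen processing genes, 2 were higher and 3 lower (29.4% called, against 10.4% of all genes). H2-K1, a classical class I chain, had 12.03, 12.09 and 11.90 in C57BL6/J, against 9.58, 9.50 and 9.58 in A/J, a difference of 2.45 ± 0.10 (5.47-fold, adjusted p = 2.27e-10). Its 3 other probe sets differed by 1.21, -0.26 and -0.21, of which only the first was called, so the size of this difference depends on the probe set read. Class I genes are also near-copies of each other that a probe set can share. H2-Q10, a secreted class I chain, differed by 1.70 ± 0.34. The lower genes were Psmb9 (-0.99 ± 0.14) and Psmb8 (-0.58 ± 0.16), subunits of the immunoproteasome, and Tap2 (-0.53 ± 0.09), a chain of the peptide transporter, which are neighbours on chromosome 17. The fit without the 3 arrays gave medians of the class II and class I lists of -0.09 and -0.02, and H2-Q10 (1.68, adjusted p = 0.104) and Psmb8 (-0.22, adjusted p = 0.683) were not called in it.

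The Ifi200 genes, a cluster on chromosome 1 that encodes DNA-sensing and related proteins and varies between mouse strains, held large differences in both directions, with 2 of 7 measured members higher and 3 lower. The share called was 71.4%, against 10.4% of all genes. Mndal had 8.68, 9.19 and 8.91 in C57BL6/J, against 3.82, 4.18 and 3.64 in A/J, a difference of 5.05 ± 0.22 (33.1-fold, adjusted p = 3.81e-10), the largest positive difference of all called genes with separated arrays. Its second probe set differed by 5.21. Ifi202b, an inhibitor of DNA sensing known to be hardly expressed in C57BL6/J, had 2.88, 2.99 and 2.96, against 6.58, 6.04 and 6.78, a difference of -3.52 ± 0.23 (adjusted p = 6.85e-08). Ifi204 was lower by 2.15 ± 0.23 (adjusted p = 1.38e-05), with an A/J level 4.45-fold that of C57BL6/J, and Ifi213 was higher by 1.43 ± 0.23. Ifi209 was also called, at -0.92, with another probe set called in the opposite direction, and was not called in the smaller fit (-0.49, adjusted p = 0.645). These genes are alike in sequence and probe sets may be shared between them.

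Restriction factors of the Trim family, which block incoming retroviruses, lie in a cluster on chromosome 7. Trim34a had 7.75, 8.00 and 7.67 in C57BL6/J, against 3.42, 4.21 and 4.77 in A/J, a difference of 3.67 ± 0.34 (12.7-fold, adjusted p = 3.08e-06). Another Trim34a probe set went the other way, at -1.89, and was also called. Trim30d, a neighbouring family member, had 6.56, 6.57 and 6.55, against 3.22, 3.75 and 3.19, a difference of 3.17 ± 0.27 (9.03-fold, adjusted p = 1.37e-06), and its second probe set differed by 2.21. Trim5 was higher by 1.60 ± 0.29, and Trim12c lower, at -0.90 ± 0.19. Of 13 measured restriction factors 3 were higher and 2 lower (38.5% called, against 10.4% of all genes), with a median of 0.13. Of these, 3 were called in the smaller fit, all higher, and Trim12c was at -0.89 (adjusted p = 0.154).

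Guanylate-binding proteins are interferon-induced GTPases that attack the vacuoles of intracellular microbes. Of 10 measured immunity GTPases 4 were lower in C57BL6/J and 6 were not called, with a median of -0.52, and limma called 0 higher (1 at an unadjusted p under 0.05). Gbp2b, formerly named Gbp1, had 4.17, 3.88 and 4.57 in C57BL6/J, against 8.38, 8.49 and 8.65 in A/J, a difference of -4.30 ± 0.18 (adjusted p = 2.42e-10). The A/J level was 19.7-fold that of C57BL6/J, and C3H/HeJ lay near A/J, at 7.93, 7.76 and 7.87. Gbp6 had 6.19, 7.32 and 6.50, against 8.55, 8.46 and 9.16, a difference of -2.05 ± 0.26 (adjusted p = 6.61e-05). Gbp8 and Gbp7 differed by -1.08 ± 0.26 and -0.75 ± 0.23. Without the 3 arrays high in squamous genes only Gbp2b and Gbp6 were called, and the list median was -0.17. Leaving out C57BL6/J control array 1 alone, or A/J control array 2 alone, also gave a count of 2. The wider type I interferon response holds genes that interferon switches on in most cells. Of its 26 measured genes 1 was called (3.85%, against 10.4% of all genes), the GTPase gene Ifi47 (-0.74 ± 0.15), and the list median was -0.10. At an unadjusted p under 0.05, 1 gene of this list was higher and 6 were lower. Ifi47 was at -0.48 in the smaller fit (adjusted p = 0.27).

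**Figure D4:**
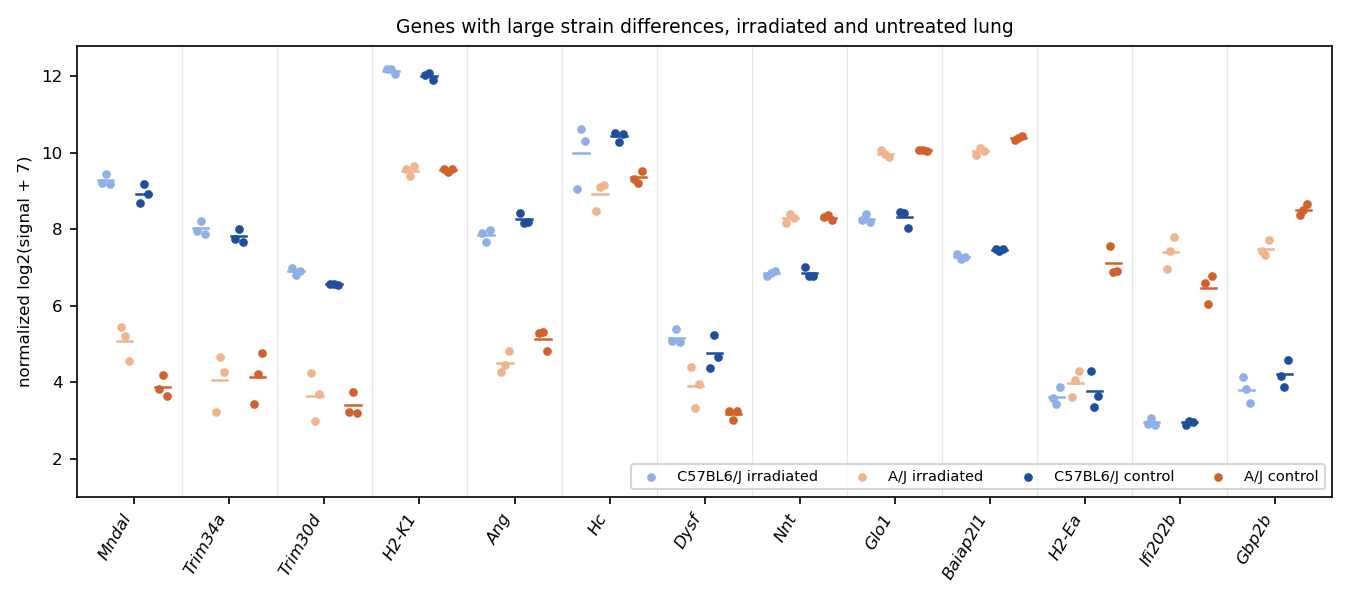
Normalized log2(signal + 7) of 13 genes with large strain differences, in the irradiated C57BL6/J and A/J arrays (pale points) and in the untreated ones (dark points), each point an array and each bar a group mean. H2-Ea differs by -0.37, not called, in the irradiated arrays and by -3.35 in the untreated ones, while the other 12 differ in the same direction in both pairs.

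Of 12 measured genes at loci where the strains are known to carry different alleles, 2 were higher in C57BL6/J and 5 lower, H2-Ea and Ifi202b above among the lower ones. The share called was 58.3%, against 10.4% of all genes. Nnt encodes the mitochondrial nicotinamide nucleotide transhydrogenase, and C57BL6/J is known to lack several of its exons. It had 7.01, 6.77 and 6.76 in C57BL6/J, against 8.31, 8.36 and 8.23 in A/J, a difference of -1.45 ± 0.11 (adjusted p = 2.81e-07), and its second probe set differed by -1.63. Glo1, which encodes the detoxifying enzyme glyoxalase 1 and is known to be duplicated in A/J, had 8.45, 8.42 and 8.04, against 10.07, 10.06 and 10.05. The difference was -1.75 ± 0.11 (adjusted p = 6.85e-08), with 3 further probe sets at -1.75, -1.01 and -2.00, all called. The A/J level of Glo1 was 3.37-fold that of C57BL6/J and the A/J level of Nnt 2.74-fold.

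Both genes called higher in C57BL6/J are known to be disrupted in A/J. Hc, which encodes complement component C5, carries a small deletion in A/J. It had 10.51, 10.28 and 10.49 in C57BL6/J, against 9.32, 9.20 and 9.53 in A/J, a difference of 1.08 ± 0.29 (2.11-fold, adjusted p = 0.0275). Without the 3 arrays the Hc difference was 0.92 (adjusted p = 0.376), and C3H/HeJ lay with C57BL6/J at 10.50, 10.60 and 10.33. Dysf, which encodes the membrane-repair protein dysferlin and carries a retrotransposon insertion in A/J, had 4.37, 5.22 and 4.66, against 3.23, 3.00 and 3.25, a difference of 1.59 ± 0.26 (3.01-fold, adjusted p = 0.000813). Ahr, the dioxin receptor gene, had 9.21, 9.44 and 9.30, against 10.02, 9.92 and 9.92, a difference of -0.64 ± 0.13 (adjusted p = 0.0048). Its call was lost in the smaller fit (-0.51, adjusted p = 0.0904). In all 5 genes the arrays of the strains were separated, against 8 of the 12 measured genes of this list and 32.5% of all genes. Naip5 and Naip2, sensors of bacterial proteins, differed by 0.38 ± 0.16 and 0.32 ± 0.24 and were not called. The metal transporter gene Slc11a1 and the antiretroviral deaminase gene Apobec3 were also not called, at -0.01 ± 0.23 and 0.57 ± 0.28.

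Other genes with the largest differences in favour of C57BL6/J came from varied functions. Rpgrip1, a ciliary protein gene known from photoreceptors, had 9.58, 9.69 and 9.82 in C57BL6/J, against 4.72, 4.95 and 5.22 in A/J, a difference of 4.74 ± 0.20 (26.6-fold, adjusted p = 3.28e-10). C3H/HeJ lay with A/J, at 4.41, 4.09 and 5.00. Sox11, a transcription factor of developing neurons, had 7.78, 7.73 and 8.03, against 3.82, 4.10 and 4.42, a difference of 3.73 ± 0.27 (13.3-fold), and 4 of its 5 other probe sets were called in the same direction. Ang, the ribonuclease angiogenin, had 8.42, 8.15 and 8.19, against 5.29, 5.30 and 4.80, a difference of 3.12 ± 0.20 (8.71-fold). Its other probe sets differed by 5.96 and 1.05, both called, so the fold depends on the probe set. Lefty1, an antagonist of Nodal signalling, had 6.59, 6.10 and 5.96, against 3.17, 2.97 and 3.27, a difference of 3.08 ± 0.23, and here C3H/HeJ lay with C57BL6/J. Nxpe4 and Ankrd63 differed by 3.50 ± 0.14 and 3.34 ± 0.23 with 1 probe set each. Exosc1, a subunit of the RNA exosome, differed by 3.16 ± 0.41, but its other probe sets were at -0.24 and -0.46, neither called.

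Genes with the largest differences in favour of A/J included actin and membrane regulators. Baiap2l1, which shapes actin at the membrane, had 7.48, 7.42 and 7.49 in C57BL6/J, against 10.34, 10.38 and 10.43 in A/J, a difference of -2.92 ± 0.09 (adjusted p = 6.27e-12). The A/J level was 7.54-fold that of C57BL6/J and the second probe set differed by -3.00. Cap1, an actin-binding protein gene, had 7.78, 7.18 and 8.22, against 10.10, 10.15 and 10.10, a difference of -2.39 ± 0.23. Myh7, a slow muscle and cardiac myosin heavy chain, had 6.17, 5.62 and 6.21, against 8.64, 8.55 and 8.55, a difference of -2.58 ± 0.20. No other gene of the cardiac muscle list was called lower. Map2, a microtubule-binding protein of neurons, differed by -2.45 ± 0.13, the clathrin adaptor subunit Ap1s3 by -2.28 ± 0.14, and the phosphatidylinositol phosphatase Inpp4b by -2.46 ± 0.27. Pik3ap1, an adaptor of B cell receptor signalling, differed by -2.75 ± 0.24 on 1 probe set and by 0.45, not called, on the other. Tmem87a had 5.40, 5.23 and 3.21, against 8.16, 8.14 and 8.31, with C57BL6/J array 3 far below its group. Among the 15 highest genes the untreated C3H/HeJ mean was nearer C57BL6/J in 4 and nearer A/J in 11, and among the 15 lowest it was nearer C57BL6/J in 2 and nearer A/J in 13. Of all 1289 called genes it was nearer A/J in 879 (68.2%), against 73.3% of the 15 highest and 86.7% of the 15 lowest.

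Platelet and neutrophil chemokine genes on chromosome 5 moved in both directions, 4 of them side by side among the measured genes. Ppbp, a platelet chemokine, had 10.84, 10.84 and 10.79 in C57BL6/J, against 8.25, 8.59 and 8.65 in A/J, a difference of 2.33 ± 0.43 (5.02-fold, adjusted p = 0.00223). Its neighbour Pf4, platelet factor 4, differed by 1.04 ± 0.16. Cxcl5, which attracts neutrophils, had 3.13, 2.83 and 3.21, against 5.41, 5.91 and 6.57, a difference of -2.91 ± 0.25 (adjusted p = 1.35e-06), and its C57BL6/J values lay at the bottom of the scale. Cxcl15, a chemokine of lung epithelium, differed by -0.55 ± 0.09. Of 35 measured genes of the chemokine and cytokine list, which does not hold Ppbp and Pf4, 3 were higher and 3 lower (17.1% called, against 10.4% of all genes). Besides Cxcl5 and Cxcl15 these were Cxcl14, an epithelial chemokine (1.62 ± 0.20), Ccl17, which draws helper T cells (1.26 ± 0.39), the skin-type chemokine Ccl27a (0.82) and Cxcl12, a homing signal for stem and immune cells (-0.88 ± 0.23). Ccl17 (1.36, adjusted p = 0.312), Ccl27a (0.71, adjusted p = 0.152) and Cxcl12 (-1.01, adjusted p = 0.13) were not called in the smaller fit.

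B and plasma cell genes were lower in C57BL6/J in 6 of 17 measured members, with a median of -0.65, and limma called 0 higher, nor did any pass upward at an unadjusted p under 0.05. The share called lower was 35.3% of the list, against 4.46% of all genes. In bulk tissue RNA, fewer cells of a type and less RNA per cell cannot be told apart. Igha, the constant region of immunoglobulin A, had 9.79, 10.36 and 9.70 in C57BL6/J, against 11.47, 11.93 and 11.90 in A/J, a difference of -1.82 ± 0.23 (adjusted p = 7.28e-05). Jchain, which joins secreted antibodies, had 8.64, 10.06 and 8.43, against 10.20, 10.51 and 10.47, a difference of -1.35 ± 0.40 (adjusted p = 0.0431). Ms4a1, which encodes the B cell surface protein CD20, had 6.41, 7.59 and 6.98, against 7.92, 8.36 and 7.91, a difference of -1.07 ± 0.31 (adjusted p = 0.0399). C57BL6/J array 2, the array without squamous genes, was highest of its group for all 3. The mean of the B cell list was 6.98 to 7.60 in C57BL6/J, against 7.78 to 7.91 in A/J. When the 3 arrays high in squamous genes were left out, only Igha was called (-1.41, adjusted p = 0.0278), and the list median was -0.33. Jchain was then at -0.33 and Ms4a1 at -0.48 (adjusted p = 0.841 and 0.691). The complement receptor Cr2 differed by -1.23 ± 0.34 in the full comparison, and by -0.66 (adjusted p = 0.586) in the smaller fit. The count of 6 also depended on single arrays. It was 2 without C57BL6/J control array 1, 9 without array 2 and 1 without array 3, and 2 without any one of the A/J control arrays. With an offset of 1 it was 3, and with no filter 2.

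The T and NK cell list had a median of -0.15, and of 0.31 in the smaller fit, and among 8 killer cell receptor genes only Ncr1, an activating receptor of NK cells, was called. It had 4.48, 4.93 and 4.37 in C57BL6/J, against 6.13, 6.15 and 6.15 in A/J, a difference of -1.55 ± 0.21 (adjusted p = 0.000115). Of 29 macrophage genes 2 were higher and 1 lower, with a median of 0.00. Chil3, a chitinase-like protein of alternatively activated macrophages, had 11.68, 11.57 and 11.67, against 9.53, 9.21 and 9.18, a difference of 2.33 ± 0.34 (5.03-fold, adjusted p = 0.000302), and Lpl, lipoprotein lipase, differed by 0.76 ± 0.20. Krt79, listed with the macrophage genes for its expression in alveolar macrophages of the mouse, had 7.16, 7.07 and 7.13, against 8.50, 8.47 and 8.60, a difference of -1.40 ± 0.26. Of 14 neutrophil genes 1 was higher, Lcn2, which also stands in the glucocorticoid list, and 1 lower, the formyl peptide receptor Fpr2 (-0.93 ± 0.20). Of 14 dendritic cell genes Ccl17 was higher and the lectins Cd209d and Cd209a were lower, at -0.93 and -0.72. The shares called were 12.5% of the killer cell receptor list, 10.3% of the macrophage list, 14.3% of the neutrophil list and 21.4% of the dendritic list. Of all genes 10.4% were called. In the smaller fit Lpl (0.84, adjusted p = 0.191), Fpr2 (-0.68, adjusted p = 0.267), Ccl17 (1.36, adjusted p = 0.312) and Cd209a (-0.59, adjusted p = 0.285) were not called. Mast cell genes had a median of -0.49 with 0 of 11 called by limma, although 5 were lower at an unadjusted p under 0.05. For the 24 innate sensors limma also called 0, with 2 higher and 6 lower at an unadjusted p under 0.05.

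Of 23 measured complement and acute-phase genes limma called 0 lower (3 at an unadjusted p under 0.05). It called 4 higher, or 17.4% of the list, against 5.93% of all genes. Besides Hc and Lcn2 these were C6, a component of the membrane attack complex, and Serping1, which inhibits the first complement component. C6 had 7.35, 7.36 and 7.38 in C57BL6/J, against 5.67, 5.96 and 6.15 in A/J, a difference of 1.43 ± 0.23 (adjusted p = 0.000611), and Serping1 differed by 0.46 ± 0.09. In the list on allergic airways and mucus 2 of 13 were higher and 2 lower (30.8% called, against 10.4% of all genes). Muc4, a membrane mucin, had 6.20, 6.58 and 6.54, against 4.59, 4.38 and 5.06, a difference of 1.77 ± 0.20 (adjusted p = 2.22e-05). Slc26a4, the anion exchanger pendrin, had 4.90, 3.76 and 4.51, against 6.11, 6.24 and 6.65, a difference of -1.95 ± 0.39 (adjusted p = 0.00364), and the interleukin 4 receptor chain Il4ra differed by -0.49 ± 0.14. Arg2, an arginase, differed by 0.96 ± 0.17. Besides Hc, the smaller fit did not call Serping1 (0.35, adjusted p = 0.222) or Il4ra (-0.37, adjusted p = 0.431).

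Among 21 alveolar type 2 genes 1 was higher and 2 lower, with a median of -0.06. Abca3, which loads surfactant lipid into lamellar bodies, had 9.66, 9.63 and 9.63 in C57BL6/J, against 10.40, 10.47 and 10.53 in A/J, a difference of -0.83 ± 0.14 (adjusted p = 0.00132), and its other probe sets gave -0.95 and -0.83. Of 16 alveolar type 1 genes 1 was called, the kinase anchor Akap5 (-0.56 ± 0.12). Of 20 club cell genes 1 was called, Bpifa1, a secreted airway defence protein, with 12.02, 11.52 and 11.92, against 10.12, 9.64 and 11.05, a difference of 1.55 ± 0.28 (adjusted p = 0.0018). The type 2, type 1 and club cell lists had 14.3%, 6.25% and 5.0% called, against 10.4% of all genes. The list on metabolism of foreign compounds, which holds enzymes and regulators such as Ahr, had 6 of 41 higher and 3 lower (22.0% called). The cytochrome P450 gene Cyp3a13 had 5.94, 5.78 and 5.98, against 3.97, 4.01 and 3.49, a difference of 2.08 ± 0.21 (4.22-fold, adjusted p = 7.08e-06). Adh7, an alcohol dehydrogenase, differed by 1.74 ± 0.29, Cyp2e1, which oxidizes ethanol and solvents, by 1.39 ± 0.20 and the sulfotransferase Sult1a1 by 1.25 ± 0.18. The lower genes were Ahr, Cyp4f16 (-0.76) and the aldehyde oxidase Aox1 (-0.54). Of the 41, 4 were called in the smaller fit, all higher. Adh7 (1.48, adjusted p = 0.0763), Cyp4f16 (-0.74, adjusted p = 0.0632), Aox1 (-0.52, adjusted p = 0.257) and Ahr lost their call. So did Abca3 (-0.84, adjusted p = 0.068), Akap5 (-0.46, adjusted p = 0.22) and Bpifa1 (1.25, adjusted p = 0.153).

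In the vessel wall, 2 of 36 endothelial genes were higher and 4 lower, with a median of -0.17. The endothelial list had 16.7% called and the matrix list below 14.0%, against 10.4% of all genes. Aplnr, the receptor for apelin on capillary endothelium, had 8.88, 8.69 and 9.03 in C57BL6/J, against 10.97, 11.08 and 10.84 in A/J, a difference of -2.10 ± 0.37 (adjusted p = 0.0014), so that the A/J level was 4.27-fold that of C57BL6/J. The transcription factor Sox18, the VEGF receptor Flt1 and the receptor Tie1 differed by -0.68 ± 0.13, -0.62 and -0.50. Vwf, the clotting factor stored in endothelial cells of larger vessels, had 10.38, 10.63 and 10.81, against 9.60, 9.55 and 9.64, a difference of 1.01 ± 0.17 (adjusted p = 0.000784). Mmrn1, which is stored in platelets and endothelium, differed by 1.13 ± 0.14. Of 43 fibroblast and matrix genes 4 were higher, with Mmp3, a matrix protease, at 1.17 ± 0.23, the proteoglycan Dcn at 0.87 ± 0.20 and Mgp, an inhibitor of calcification, at 0.73 ± 0.10. The 2 lower ones were Fn1, which encodes fibronectin, with 9.64, 9.54 and 9.83, against 10.35, 10.44 and 10.47, a difference of -0.75 ± 0.15 (adjusted p = 0.00361), and Timp3, a protease inhibitor (-0.63). Col1a1, a chain of fibrillar collagen I, had 7.45, 7.40 and 7.72, against 7.35, 7.08 and 6.89, a difference of 0.42 ± 0.23 that was not called. In the smaller fit 1 of the 43 was called, Mgp, and Mmp3 (1.07, adjusted p = 0.121), Dcn (0.54, adjusted p = 0.301), Fn1 (-0.88, adjusted p = 0.0543) and Timp3 (-0.54, adjusted p = 0.0874) were not. Of the endothelial genes, Flt1 (-0.90, adjusted p = 0.063) and Tie1 (-0.54, adjusted p = 0.193) were not called in it.

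Muscle lists held 10 genes called higher in C57BL6/J and 1 called lower. The smooth, cardiac and skeletal muscle lists had 26.7%, 31.2% and 16.7% called, against 10.4% of all genes. Of 15 smooth muscle genes 4 were called, all higher, with a median of 0.53, among them Myl9, a myosin light chain (0.87 ± 0.13), and Myh11, the smooth muscle myosin heavy chain (0.86 ± 0.22). Without the 3 arrays only Myl9 was called (0.83), Myh11 was at 0.74 (adjusted p = 0.325), and the median was 0.32. The count of 4 was also 1 when C57BL6/J control array 1 or 3, or A/J control array 3, was left out alone. Of 16 cardiac muscle genes 4 were higher and Myh7 was lower, with a median of 0.79, and without the 3 arrays Myh7 alone was called and the median was 0.22. Tcap, a sarcomere protein, had 8.37, 7.57 and 8.58 in C57BL6/J, against 6.72, 6.32 and 5.85 in A/J, and differed by 1.28 (adjusted p = 0.164) in the smaller fit. The myoglobin gene Mb had 9.99, 8.62 and 9.95, against 7.30, 7.85 and 6.11, a difference of 2.44 ± 0.55 (adjusted p = 0.00893), and 1.54 (adjusted p = 0.28) without the 3 arrays. Of 12 skeletal muscle genes 2 were higher, and the list had a median of 2.49, and of 0.18 without them.

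Squamous epithelium genes had a median of 2.48, and 0.29 without the 3 arrays. Krt4 differed by 5.09 ± 1.58 and was not called (adjusted p = 0.0511), and without the 3 arrays by 0.29. Another 3 genes high on the same arrays stood among the 15 largest differences. Lce1h, a protein of the cornified envelope like Lce3c, had 8.24, 4.52 and 7.79 in C57BL6/J, against 3.46, 3.67 and 3.63 in A/J, a difference of 3.26 ± 0.93 (adjusted p = 0.0336), and 0.93 (adjusted p = 0.631) without the 3 arrays. Lce3c had 8.05, 4.0 and 7.94, against 3.62, 3.50 and 3.55, a difference of 3.11 ± 0.85, and 0.45 without them. Fam25c had 8.60, 5.40 and 7.98, against 4.48, 3.60 and 4.36, a difference of 3.17 ± 0.80, and 1.25 (adjusted p = 0.167) without them. Of the 15 highest genes 12 were still called without the 3 arrays, and of the 15 lowest 14.

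Of 20 immediate early and heat shock genes 2 were higher and 1 lower. Fos, an early-response transcription factor, had 7.82, 7.92 and 8.08 in C57BL6/J, against 8.91, 9.30 and 9.77 in A/J, a difference of -1.39 ± 0.37 (adjusted p = 0.0235), while the heat shock genes Hspa1b and Hspb1 differed by 1.54 and 0.76. In the smaller fit these were -1.41 for Fos (adjusted p = 0.163), 0.67 for Hspa1b (adjusted p = 0.518) and 0.67 for Hspb1 (adjusted p = 0.0641), none called. Of 22 p53 targets only the death receptor Fas was called, with 7.81, 8.06 and 7.99, against 6.97, 6.97 and 7.35, a difference of 0.86 ± 0.17 (adjusted p = 0.00362), and Cdkn1a, the cell cycle inhibitor p21, was at -0.28 ± 0.28. Fas had 0.97 in the smaller fit (adjusted p = 0.065). At the Pas1 interval, a locus on chromosome 6 known for lung tumour susceptibility in A/J, 1 of 4 measured genes was called, Lrmp (-0.81 ± 0.22, and -0.55 in the smaller fit, adjusted p = 0.51). Of 4 sex-linked genes limma called 0, and 1 was lower at an unadjusted p under 0.05. Xist, expressed from the inactive X chromosome, differed by -0.68, and the Y-linked Kdm5d and Eif2s3y by -0.23 and -0.17.

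Some called genes stood next to each other. Of 12389 genes placed on a chromosome in the order of the RefSeq gene table, 1288 were called, and of their 2571 neighbouring positions 374 held another called gene (14.5%, against 10.4% of all genes). There were 30 runs of 3 or more adjacent called genes, 21 of 3 and 9 of 4. These are counts only, and they were not tested against chance. In 20 of the runs, genes higher and genes lower in C57BL6/J stood side by side. One run of a single direction on chromosome 14 held the purine enzyme gene Pnp (0.56) and the ribonuclease genes Ang and Rnase4 (0.52). On chromosome 6 the lymphocyte GTPase genes Gimap8, Gimap9 and Gimap4 were lower, at -0.74, -0.70 and -0.83, and on chromosome 4 the lysosomal enzyme gene Ppt1 (-0.42), Cap1 and the lipid transporter gene Mfsd2a were lower too. Mixed runs included the lymphocyte receptor genes Slamf1 (0.87), Cd84 (1.35) and Slamf6 (-1.20) on chromosome 1 and the genes Trim21, Trim68, Trim34a and Trim5 on chromosome 7. Leaving out the 3 arrays, the share of neighbouring positions called was 8.19%, against 3.25% of all genes. Of the genes named here in runs, Pnp, Rnase4, Gimap8, Gimap9, Ppt1, Mfsd2a, Slamf1 and Slamf6 were not called in the smaller fit, nor was Trim68.

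Probe sets of the same gene did not always match in their calls. Of the 1289 called genes 700 had 1 kept probe set, and 589 had several. Among the 589, another probe set was called in the same direction in 250 (42.4%), in the opposite direction in 22 (3.74%), and no other was called in 317 (53.8%). A probe set reads a short stretch of a transcript, and the strains' sequences under the probes were not compared here.

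The irradiated lungs gave a second comparison of the same strains on separate arrays. There 2414 genes (19.4%) were called between C57BL6/J and A/J, 923 (7.44%) higher and 1491 (12%) lower. The actin ratio, 5' over 3', was 0.712 to 0.749 in irradiated C57BL6/J lung, against 0.413 to 0.551 in irradiated A/J lung, and the part of RNA integrity in these differences was not tested. Of the 1289 genes called in untreated lung, 526 were called in the same direction in irradiated lung, which is 21.8% of the irradiated calls and 40.8% of the untreated ones. A further 37 were called in the opposite direction and 726 were not called there. The sign was the same in 1026 of the 1289 (79.6%), against 59.6% of all genes. The strain difference itself changed in 677 genes (5.45%) by the test of the difference of differences, 306 upward (2.47%) and 371 downward (2.99%), and 247 of the 1289 (19.2%) were among them. Leaving out the 3 arrays, 1 of them irradiated A/J, gave 2206 genes called in irradiated lung and 87 with a changed strain difference.

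Large differences in the same direction in both pairs included Rpgrip1, which differed by 4.74 ± 0.20 in irradiated lung. Mndal differed there by 4.21, Trim34a by 3.96, Trim30d by 3.27 and H2-K1 by 2.61. On the A/J side, Ifi202b differed by -4.45, Gbp2b by -3.68 ± 0.18, Baiap2l1 by -2.76, Ap1s3 by -2.29, Glo1 by -1.70 and Nnt by -1.43. None of these 11 genes was called for a change in the strain difference, with values for that change between -0.93 and 0.61. This does not show that the differences were equal. Without the 3 arrays high in squamous genes the change was -1.35 for Mndal and 1.06 for Gbp2b.

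**Figure D5:**
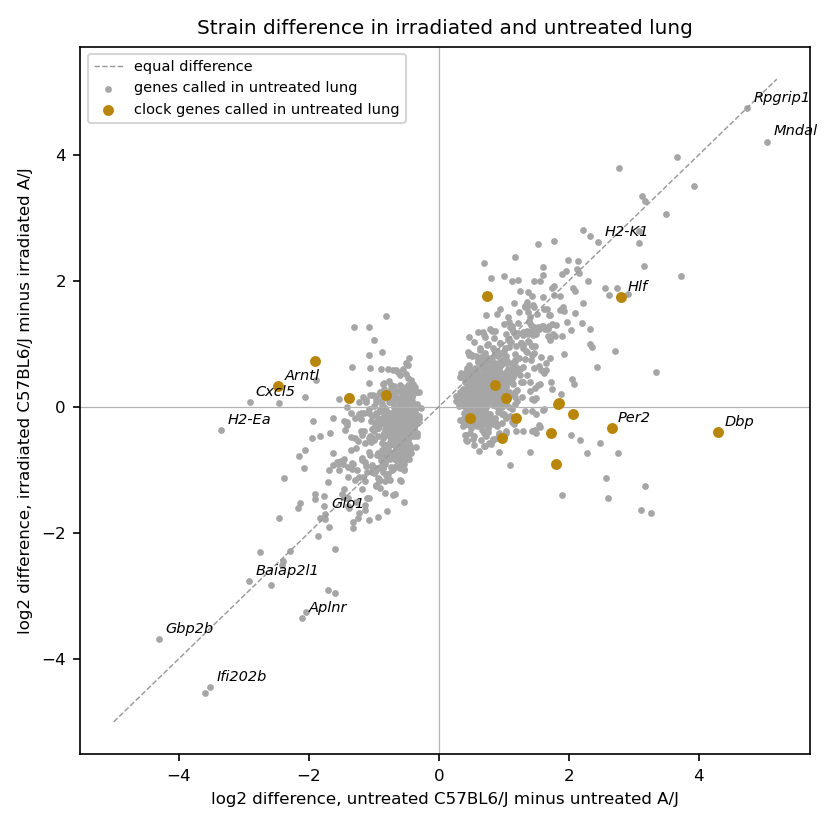
Each point is one of the 1289 genes called in untreated lung, with its strain difference in untreated lung (horizontal, log2) against that in irradiated lung (vertical, log2), the 18 called clock genes in gold and equal differences on the dashed line. Rpgrip1, Mndal and Gbp2b lie near the line, and Dbp, Per2, Arntl, H2-Ea and Cxcl5 lie near 0 on the vertical axis.

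The clock genes differed mainly in untreated lung. In irradiated lung 2 of the 21 were higher in C57BL6/J and 1 lower, with a median of 0.09, while 19.4% of all genes were called there. The strain difference changed in 16 of the 21, 5 upward and 11 downward. Among all genes tested, it changed upward in 2.47% and downward in 2.99%. Dbp had 8.11, 8.92 and 8.76 in irradiated C57BL6/J lung, against 8.83, 9.04 and 9.11 in irradiated A/J lung, so that the strain difference was -0.40 ± 0.20 there. It changed by -4.70 ± 0.29 relative to untreated lung (adjusted p = 1.95e-07). Arntl differed by 0.33 in irradiated lung and Per1 by -0.91 ± 0.16, opposite in sign to untreated lung, while Hlf differed by 1.74 ± 0.24 in the same direction. The hour of sacrifice is not given for the irradiated groups either, and its part in these changes was not tested. The glucocorticoid list likewise had 3 genes higher and 3 lower in irradiated lung, with a median of 0.13, and the strain difference fell in 7 of its members. In the smaller fit it changed in 6 clock genes, Dbp (-4.50), Arntl (2.08) and Per1 (-2.86) among them, and in 3 of the glucocorticoid list.

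Immune and matrix genes showed other patterns in irradiated lung. H2-Ea had 3.57, 3.43 and 3.86 in irradiated C57BL6/J lung, against 3.62, 4.05 and 4.29 in irradiated A/J lung, so that its strain difference there was -0.37 and had changed by 2.98 ± 0.43. The C57BL6/J values of H2-Ea were near the bottom of the scale in both states, and the irradiated A/J values were also low. The change thus rests on A/J, whose mean was 7.11 in untreated lung. Gbp6 differed by 0.15 in irradiated lung, a change of 2.20 ± 0.37 (adjusted p = 0.00391), and Cxcl5 by 0.08, a change of 2.99. B and plasma cell genes were higher in 5 of 17 in irradiated C57BL6/J lung, with a median of 0.14, and Ms4a1 differed by 1.27 ± 0.31. Mast cell genes were lower in 8 of 11 in irradiated C57BL6/J lung, with a median of -2.48. Matrix genes were lower in 20 of 43 and higher in 3. Col1a1, not called in untreated lung, differed by -1.31 ± 0.23, a change of -1.73 in the strain difference. Over all genes, 7.44% were called higher and 12% lower in irradiated C57BL6/J lung. The count of all lower genes there, 1491, was 4630 with median centring and 3168 with no scaling. The actin ratio was 0.413 to 0.551 in irradiated A/J lung, and the part of RNA integrity in these list counts was not tested. The changes of H2-Ea (3.54), Gbp6 (1.72) and Cxcl5 (3.10) were also called in the smaller fit, and that of Col1a1 (-1.65, adjusted p = 0.101) was not.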

How the data were processed

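Lung RNA of 18 samples was measured on 1-colour arrays, and the deposited values are 1 linear signal intensity per probe set and array, made with MAS5 per the submitters' processing notes, which give no version. Background handling and scanner settings are not given in the sources used here. Of 45101 probe sets, 64 control probe sets were left out of the tests. Groups came from the titles, strains and treatments in the labels.

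Intensities were turned into log2(signal + 7) and quantile normalized, since the trimmed mean signal varied between arrays. The plan had assumed no further scaling, which was kept as an alternative. A probe set was kept if above the overall median in at least 3 arrays, which left 25746. The platform annotation held 35890 probe sets, 34958 with 1 gene and 932 with several, and 9211 of the table were unnamed. A gene was read from its probe set of highest mean that named it alone, giving 12412 genes.

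A model of 6 group means was fitted to all 18 arrays with limma 3.58.1 in R 4.3.3 (12 residual degrees of freedom, two-sided, Benjamini-Hochberg adjustment over all genes tested, threshold 0.05). The fit was tested on simulated data. All adjusted p-values come from it, errors of differences are standard errors, and the small number of arrays limits the precision. Comparisons were C57BL6/J minus A/J in untreated lung, the same in irradiated lung, and the difference of the 2 differences. Gene lists are described by counts and medians only.

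Named genes are the 15 highest and 15 lowest called differences with separated arrays, up to 4 called members of each list, runs of 3 or more adjacent called genes, the 6 highest and lowest genes of the other comparisons, and a set of genes named whatever their result. Members of a list beyond these were named after their values were seen. The lists and the comparison were chosen with earlier results of these data known. Samples of the 2 control groups share replicate numbers, but deviations of same-numbered samples correlated by 0.049, -0.021 and -0.103, so they were not treated as pairs. Alternatives tried were other scalings, offsets, filters and probe set summaries, the replicate block, fits on the compared groups only, and leaving out arrays.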

Additional observations from a re-analysis of the deposited data

Results flagged for a closer look

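For 28 of the genes examined one by one, the strain difference (C57BL6/J minus A/J, log2) in irradiated lung was not the same as in untreated lung by limma's test of that difference at an adjusted p under 0.05. The values here are the difference in irradiated lung minus that in untreated lung. Of all genes tested 5.45% passed the same test, and these 28 were chosen with results of the data known. Without the 3 arrays high in squamous genes, 10 of the 28 still passed.

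Clock genes made up 16 of them, and the hour of sacrifice is not given for any group. Negative values were found for Dbp (-4.70), Per2 (-2.99), Per1 (-2.71), Nr1d2 (-2.18), Tef (-2.14), Per3 (-1.80), Ciart (-1.79), Nr1d1 (-1.48), Usp2 (-1.36), Bhlhe40 (-0.89) and Csnk1e (-0.65). Positive values were found for Arntl (2.80), Npas2 (2.62), Nfil3 (1.53), Clock (1.00) and Rora (1.00). Outside the clock, the glucocorticoid-responsive Fkbp5 had -1.18. Without the 3 arrays, 6 of the 16 passed, namely Dbp, Per2, Per1, Nr1d2, Tef and Arntl. The other 10 did not, nor did Fkbp5 (-1.74, adjusted p = 0.0506 by limma).

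Genes high on the arrays with squamous genes were Krt4 (-8.81), Lce1h (-4.94), Lce3c (-4.75) and Fam25c (-4.44). Of these arrays 1 is irradiated A/J and 2 are untreated C57BL6/J, and none of the 4 genes passed without them. Among other genes, Cxcl5 had 2.99, H2-Ea 2.98, Inpp4b 2.52 and Map2 0.69, while Ankrd63 had -2.78, Col1a1 -1.73 and Sox11 -1.65. Of these, Map2, Col1a1 and Sox11 did not pass without the 3 arrays (adjusted p = 0.0935, 0.101 and 0.143).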

How the results depend on the processing

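No called value among the genes examined one by one changed sign under any alternative run, whereas uncalled differences near 0 did, such as Cdkn1a (-0.28, and 0.48 without the 3 arrays high in squamous genes). These runs reuse the arrays from which the genes were called, so kept signs are not separate support. The count of 1289 genes called in untreated lung was 882 to 1458 with median centring, an offset of 1 or 32, no filter, a stricter filter, mean probe sets or only the compared groups. With no scaling it was 384 (223 higher, 161 lower), and without the 3 arrays high in squamous genes 404 (237 higher, 167 lower). Leaving out 1 array gave 853 to 1264 called, 502 to 718 higher and 348 to 546 lower, against 736 higher and 553 lower in all, with the lowest count called without A/J control array 2. Arrays without which the lower count moved by over 1.5 times were C57BL6/J control array 1 (361) and A/J control arrays 2 (348) and 3 (357). The replicate block gave 1224, and of the counts over all genes it moved none by over 1.5 times, while the squamous list had 9 called with it, against 4.

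The irradiated count of 2414 was 5174 with median centring (544 higher, 4630 lower), 3355 with no scaling (187 higher, 3168 lower), 1068 with only the compared groups, 2300 with the replicate block, and 1751 to 2399 with 1 array left out. Median centring and no scaling put the median of all genes at -0.36 and -0.64 there, against -0.04 and -0.15 in untreated lung. The 677 genes whose strain difference changed became 251 with no scaling, 440 with no filter, 446 with only the compared groups, 87 without the 3 arrays, 624 with the replicate block, and 350 to 714 with 1 array left out. Neighbouring positions called (14.5%) were 8.19% without the 3 arrays, against 10.4% and 3.25% of all genes in these fits.

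Of 38 genes called in untreated lung and followed through all alternatives, 31 were called in every one of the 17 in which they were tested (Cxcl5 in 16), and Ahr, Fam25c, Fn1, Hc, Lce1h, Lce3c and Ucp1 were lost in some. Other named genes were followed only without the 3 arrays. With no scaling, the clock list had 11 called, against 18, the glucocorticoid list 6, against 13, the matrix and endothelial lists 1 each, against 6, the xenobiotic list 4, against 9, the complement list 2, against 4, the class I and restriction factor lists 3 each, against 5, and the squamous list 14, against 4. Of the smooth muscle genes limma then called 0 (3 at an unadjusted p under 0.05), and 1 with median centring, against 4. The causes of these shifts were not tested. Values near the bottom of the scale limit the folds of dim genes.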
